A study of Mus musculus with 9 samples.

Results

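The hormone genes of the enteroendocrine cells were followed in the jejunum of 9 mice. The set was named by gene symbol, and all 10 members were found among the 31685 genes measured. They were 8 genes for peptide hormones (Gcg, Cck, Sst, Gip, Nts, Pyy, Sct and Ghrl), together with Chga, the gene of the granule protein chromogranin A, and Tph1, the gene of the rate-limiting enzyme of serotonin synthesis outside the nervous system. All mice were wild-type C57BL/6J males of 6 to 8 weeks, and each of the 3 groups held 3 of them. The control group was left untreated. The TAI group received total abdominal irradiation, a single X-ray dose of 12 Gy, and phosphate-buffered saline. The TAI/IVIg group received the same 12 Gy and human intravenous immunoglobulin (IVIg), pooled antibody from donors, at 500 mg/kg within 1 h and then every 3 days. Jejunal tissue, labelled as epithelial, was taken on day 3 after irradiation, and each mouse gave 1 mRNA library from total RNA. No mouse received IVIg without irradiation.

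Enteroendocrine cells are scattered single cells of the intestinal epithelium that sense the content of the gut lumen and release hormones from granules at their base. They arise from the same crypt stem cells as enterocytes, goblet cells and Paneth cells. Their hormones are laid out along the length of the intestine. Gip, Cck and Sct are used most in the duodenum and upper jejunum, while Gcg, which encodes the glucagon-like peptides, Pyy and Nts are used more towards the ileum and, for Gcg and Pyy, the colon. Sst is made by D cells and also by neurons of the gut wall.

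Expression is given in FPKM, a count of fragments set to a common exon length and library size, which lets genes be compared with each other. The libraries held 16284386 to 18244535 fragments assigned to genes. Differences were tested with limma on log2(FPKM + 1) over the 13056 genes that reached 1 FPKM in 3 mice, and an adjusted p under 0.05 (Benjamini-Hochberg over all these genes) was called a change. Fold changes on this scale understate those of low genes. Of the 10 members 8 passed the filter, and Ghrl and Tph1 did not. All genes together were displaced: their median log2 fold change was -0.23 for TAI against control and -0.39 for TAI/IVIg against control. With the library medians set equal these medians were 0.03 and 0.05, and results of the 10 members that change with this scaling are named as they come. For the genes of other lists only some are named. In whole tissue, fewer cells of a type and less RNA per cell cannot be told apart.

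Before the hormones, genes used in one stretch of the small intestine were checked, because the tissue label gives the jejunum for all mice. Fabp6, the bile acid binding protein of ileal enterocytes, was read at 7410, 8180 and 7330 FPKM in the control mice. It was at 1370, 1870 and 3530 FPKM in the TAI mice, and at 1350, 208 and 229 FPKM in the TAI/IVIg mice. The control libraries thus carried the highest level of this ileal gene, and TAI/IVIg mice 2 and 3 the lowest. Summed over the 11 genes of the distal list, the level was 8490 to 9430 FPKM in control, 3050 to 5650 in TAI and 1230 to 2990 in TAI/IVIg mice. Its genes did not move as 1 block, since in TAI/IVIg mice 5 of 10 tested fell, among them Fabp6, Slc10a2, Slc51a and Osr2, and 3 rose (Mep1a, Cubn and Amn). The proximal list summed to 246 to 437 FPKM in control, 571 to 582 in TAI and 665 to 923 in TAI/IVIg mice. In this list Lct, lactase, was at 4.82 to 16.6 FPKM in control mice and at 106 to 210 in TAI mice, and it reached 216 to 343 in TAI/IVIg mice. The proximal genes did not move as 1 block either. Of the 5 tested, 2 rose and 1 fell in TAI mice, and 3 rose and 1 fell in TAI/IVIg mice. The gene that fell was Gcnt1 in both. Cyp2b10, among those that rose, was at 0.520 to 1.96 FPKM in control mice. It passed the filter through the irradiated mice, where it was high, so its calls are a description. Beside the counts of both lists, 8.81% of all tested genes rose and 26.1% fell in TAI mice, and 9.06% rose and 37.4% fell in TAI/IVIg mice. Gcnt1 was at 3.67 to 6.42 FPKM in control, 1.14 to 2.09 in TAI and 0.652 to 1.94 in TAI/IVIg mice. The part of these region genes in the hormone results was not tested, and a difference in the stretch of gut sampled and a change within it cannot be told apart.

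Genes of other tissues were low. Of the stomach list 7 of 8 matched genes, and of the pancreatic acinar list 8 of 9, stayed under 1 FPKM in every mouse. Enteric neuron genes were present and differed between mice. Their sum was 24.9 to 29.8 FPKM in control, 37.8 to 58.1 in TAI, and 43.5, 26.4 and 13.8 FPKM in TAI/IVIg mice 1, 2 and 3.

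Irradiation was followed by opposite changes within the set. In TAI against control 1 of the 8 tested members rose (Sst) and 3 fell (Chga, Cck and Pyy), where 8.81% of all tested genes rose and 26.1% fell. In TAI/IVIg against control 2 of 8 rose (Sst and Gip) and 4 fell (Chga, Gcg, Pyy and Cck), where 9.06% of all genes rose and 37.4% fell. The share that fell was thus not far from that of all genes in either comparison. The median log2 fold change of the 8 members was -0.54 and -0.66, beside -0.23 and -0.39 over all genes. With the library medians set equal the same counts were 2 up and 2 down for TAI, and 3 up and 2 down for TAI/IVIg. Of all 13056 tested genes 1817 then rose and 1685 fell for TAI, and 2708 rose and 1992 fell for TAI/IVIg. Between TAI/IVIg and TAI limma called 0 members, and 0.0% of all genes in either direction. At an unadjusted p under 0.05 limma gave 1 member there (Gcg) and 1680 genes in all, and limma-voom on the recovered reads also called 0 genes.

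**Figure D1:**
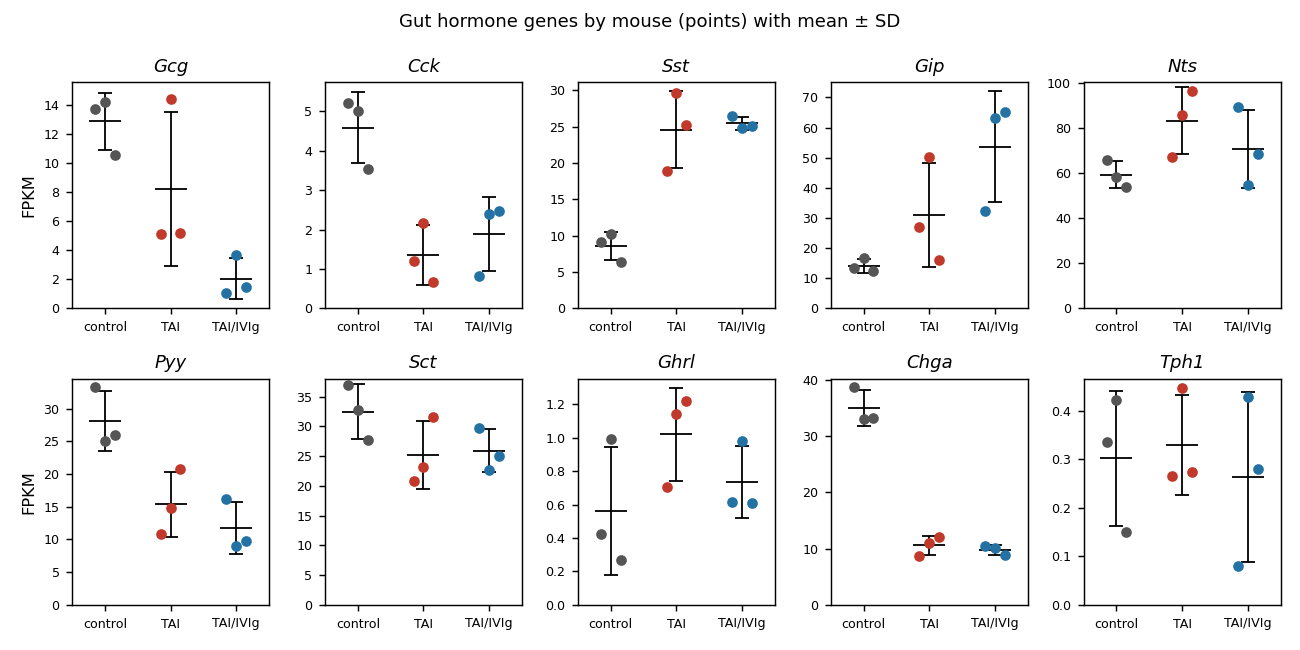
Level of each of the 10 genes in FPKM (linear axes from 0) by group. Points are mice, and the black bars give the mean ± SD of 3 mice. Chga lies at 33.1 to 38.7 FPKM in control mice and at 8.70 to 12.0 in the irradiated groups, and Sst shows the opposite order.

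The sequences before the start of 4 members are shown because these genes set the 2 directions: Chga and Gcg were lower, and Sst and Gip higher, in TAI/IVIg mice. Each run holds the 250 bases before the annotated start, 5′ to 3′ on the gene's strand, from RefSeq on GRCm38.p6. The gene coordinates given below come from GENCODE M21, whose starts can differ. For Sst that interval, chr16:23889573-23890958, holds part of the window, its TGACGTCA included. Capitals mark matches, on either strand, to the E-box CANNTG, which basic helix-loop-helix factors such as Neurog3 and Neurod1 bind, to TGACG, the core of a cyclic AMP response element, and to GATAA, the core of a GATA site. The Chga run lies at chr12:102554691-102554940, plus strand, the Gcg run at chr2:62483654-62483903, minus strand, the Sst run at chr16:23890845-23891094, minus strand, and the Gip run at chr11:96024295-96024544, plus strand.
Chga: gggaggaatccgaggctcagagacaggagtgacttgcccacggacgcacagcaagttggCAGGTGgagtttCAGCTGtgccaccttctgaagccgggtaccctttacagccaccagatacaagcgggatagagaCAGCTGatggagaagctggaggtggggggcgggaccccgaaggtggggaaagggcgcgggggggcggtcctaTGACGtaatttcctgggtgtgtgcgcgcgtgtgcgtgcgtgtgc
Gcg: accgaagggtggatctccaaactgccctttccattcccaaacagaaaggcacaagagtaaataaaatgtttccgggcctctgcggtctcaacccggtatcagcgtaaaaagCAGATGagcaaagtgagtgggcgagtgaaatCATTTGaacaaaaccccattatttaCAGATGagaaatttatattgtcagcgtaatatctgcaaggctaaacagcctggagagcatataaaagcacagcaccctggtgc
Sst: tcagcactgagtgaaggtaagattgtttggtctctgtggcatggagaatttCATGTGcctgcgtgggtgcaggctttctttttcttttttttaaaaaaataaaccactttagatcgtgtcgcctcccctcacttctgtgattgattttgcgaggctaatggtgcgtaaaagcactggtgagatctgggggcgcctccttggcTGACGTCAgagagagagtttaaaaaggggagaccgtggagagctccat
Gip: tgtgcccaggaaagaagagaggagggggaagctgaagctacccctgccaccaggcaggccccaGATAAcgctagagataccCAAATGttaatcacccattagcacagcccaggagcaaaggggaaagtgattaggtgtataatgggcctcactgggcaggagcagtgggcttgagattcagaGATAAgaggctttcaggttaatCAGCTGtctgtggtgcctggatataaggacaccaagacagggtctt

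These letters set the 4 windows apart. Chga and Gcg each held 3 E-boxes, Gip 2 and Sst 1. The Sst window alone of the 4 held the whole palindrome TGACGTCA, which starts 48 bases before the annotated start and is read as TGACG on both strands. Chga held 1 TGACG, 44 bases before its start, and Gip and Gcg held none. No other matches overlapped. Gip alone of the 4 held GATAA, at 187 and 68 bases before its start. Among the other members Cck, which fell, held 3 E-boxes, 1 TGACG and 1 GATAA, and Nts, not called, held 1 of each. The motifs thus did not part the members by direction. Over 32851 promoter windows of this length 66.2% held an E-box, 17.8% TGACG and 22.6% GATAA. A match describes the letters and does not show that a factor was bound.

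Chga gave the steadiest difference. Chromogranin A fills the granules of most enteroendocrine cells, and the study used its protein to count them. It reported significantly fewer stained cells 3 days after irradiation, and significantly more of them again with IVIg. The gene lies at chr12:102554969-102565028 on the plus strand (GRCm38, as are all gene coordinates here). It was read at 38.7, 33.1 and 33.3 FPKM in the control mice, at 8.70, 11.0 and 12.0 FPKM in the TAI mice, and at 10.5, 10.1 and 8.78 FPKM in the TAI/IVIg mice. Every irradiated mouse, with or without IVIg, was below every control mouse. The mean fell from 35.0 ± 3.19 FPKM (SD, n = 3) to 10.6 ± 1.70 in TAI mice, 3.31-fold lower, and to 9.77 ± 0.875 in TAI/IVIg mice, 3.58-fold lower. The log2 fold changes were -1.65 (SE 0.14, limma adjusted p = 0.000315) and -1.74 (SE 0.14, limma adjusted p = 0.000153), and they passed the threshold in all 19 alternative settings. The TAI/IVIg and TAI mice overlapped, with a log2 difference of -0.10 and a 95% interval of -0.42 to 0.23. The RNA level thus did not show the recovery that the study reported for stained cells, which is another measure.

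Sst went the other way. Somatostatin, from D cells, holds back the release of other gut hormones. The gene (chr16:23889573-23890958, minus strand) was at 9.10, 10.3 and 6.41 FPKM in control mice, 18.9, 29.6 and 25.3 FPKM in TAI mice, and 26.5, 24.9 and 25.1 FPKM in TAI/IVIg mice. The groups of irradiated mice overlapped with each other and lay wholly above the control mice. The control mean was 8.60 ± 1.98 FPKM (SD, n = 3). It was 24.6 ± 5.34 FPKM for TAI, 2.86-fold higher, and 25.5 ± 0.900 FPKM for TAI/IVIg, 2.97-fold higher. In log2 terms the rise was 1.42 (SE 0.20, limma adjusted p = 0.00168) for TAI and 1.49 (SE 0.20, limma adjusted p = 0.000857) for TAI/IVIg, and both passed in all 19 alternatives. Between TAI/IVIg and TAI the difference was 0.07, with a 95% interval of -0.38 to 0.52. The neuron gene sum was also higher in TAI than in control mice, at 37.8 to 58.1 against 24.9 to 29.8 FPKM. The log2 difference was positive in all 10 tested neuron genes, and 1 of them, Ret, was called, where 8.81% of all tested genes rose. The neuron sum was 43.5, 26.4 and 13.8 FPKM in TAI/IVIg mice 1, 2 and 3, while Sst was at 26.5, 24.9 and 25.1 FPKM. Ret gave 5.96, 4.45 and 6.17 FPKM of that sum. The part of neurons in the Sst result was not tested.

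The 2 genes therefore changed their proportion in every irradiated mouse. Sst stood at 0.193 to 0.311 of the Chga level in control mice, both in FPKM. It stood at 2.10 to 2.69 times the Chga level in TAI mice and at 2.47 to 2.85 times in TAI/IVIg mice. These ratios describe the mice, and no test was made of them.

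Of the genes used most in the upper small intestine, Gip and Cck parted. Gip encodes the incretin of K cells, which raises insulin release after a meal. The gene (chr11:96024545-96030831, plus strand) was at 13.3, 16.6 and 12.4 FPKM in control mice, and at 27.0, 50.1 and 16.0 FPKM in TAI mice. In TAI/IVIg mice it was at 32.4, 63.1 and 65.3 FPKM. The TAI/IVIg mice were all above the control mice, while TAI mouse 3 lay within the control range. Gip was 3.80-fold higher in TAI/IVIg than in control mice, at 53.6 ± 18.4 against 14.1 ± 2.25 FPKM (SD, n = 3), a log2 change of 1.80 (SE 0.40, limma adjusted p = 0.00655) that passed in all 19 alternatives. For TAI against control the log2 difference was 0.95 (SE 0.40) and did not pass, at a limma adjusted p of 0.0913. Without TAI mouse 3 it was 1.34 and passed, at a limma adjusted p of 0.0308, and it passed also with the library medians set equal (0.0432) or with quantile normalization (0.0416), where all 19 alternatives ranged from 0.0308 to 0.268. The TAI/IVIg and TAI groups overlapped, with a log2 difference of 0.85 and a 95% interval of -0.05 to 1.74. The higher Gip levels of TAI/IVIg mice 2 and 3 came beside the lowest Fabp6 levels of the series. They also came beside Fabp1, a fatty acid binding protein of the upper small intestine taken from the enterocyte list, at 4870 and 4180 FPKM, where TAI/IVIg mouse 1 had 1480. Of the proximal list, Lct was at 216, 341 and 343 FPKM in TAI/IVIg mice 1, 2 and 3, but Cyp2b10 was at 54.1, 45.9 and 56.1.

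Cck fell in both irradiated groups. Cholecystokinin, from I cells, drives gallbladder emptying and pancreatic secretion. Its gene (chr9:121489824-121495694, minus strand) was at 5.20, 4.99 and 3.54 FPKM in control mice, at 1.21, 2.16 and 0.672 FPKM in TAI mice, and at 0.810, 2.39 and 2.47 FPKM in TAI/IVIg mice. All irradiated mice lay below all control mice, on 16 to 54 reads a mouse. The log2 change was -1.28 (SE 0.31, limma adjusted p = 0.0134) in TAI mice, where the mean level was 3.40-fold lower, and this call held in all 18 alternatives that tested the gene. In TAI/IVIg mice it was -0.996 (SE 0.31, limma adjusted p = 0.0271), with a mean level 2.42-fold lower. That second call was lost in 7 of 18 alternatives, whose adjusted p ranged from 0.0238 to 0.266. Among them were the fits without control mouse 1 (-0.91, limma adjusted p = 0.0707), control mouse 2 (-0.94, 0.0734) and TAI/IVIg mouse 1 (-0.69, 0.0742), and the medians set equal (-0.58, 0.200). Gip stood at 2.56 to 3.49 times the Cck level in control mice, at 22.4 to 23.7 times in TAI mice and at 26.4 to 40.0 times in TAI/IVIg mice, so the 3 TAI mice gave nearly the same proportion although their Gip levels spread from 16.0 to 50.1 FPKM.

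Sct, the gene of secretin, which calls up bicarbonate from the pancreas, showed no called change. It lies at chr7:141278330-141279133 on the minus strand and was read at 36.9, 32.8 and 27.7 FPKM in control, 20.8, 23.2 and 31.6 in TAI, and 29.8, 22.7 and 25.1 in TAI/IVIg mice. The ranges of the 3 groups overlapped. The log2 difference was -0.36 for TAI against control, with a 95% interval of -0.78 to 0.05, and -0.32 for TAI/IVIg, with an interval of -0.74 to 0.10. The latter turned to 0.26 with the library medians set equal.

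Among the genes used more towards the ileum, Gcg showed the widest gap between the irradiated groups. Its product is cut into glucagon-like peptide 1, an incretin, and glucagon-like peptide 2, which supports growth of the intestinal mucosa. The gene (chr2:62474530-62483650, minus strand) was at 13.7, 14.2 and 10.6 FPKM in control mice. It was at 5.12, 14.4 and 5.21 FPKM in TAI mice and at 1.04, 3.66 and 1.48 FPKM in TAI/IVIg mice. TAI mouse 2 was as high as the control mice, and the TAI/IVIg mice lay below all mice of both other groups. Gcg was 6.25-fold lower in TAI/IVIg than in control mice, at 2.06 ± 1.40 against 12.9 ± 1.96 FPKM (SD, n = 3), and the log2 change of -2.26 (SE 0.40, limma adjusted p = 0.00263) passed in all 19 alternatives. For TAI against control the log2 difference was -0.72 (SE 0.40, limma adjusted p = 0.192). Without TAI mouse 2 it was -1.16 and passed, at a limma adjusted p of 0.0358, where the 19 alternatives ranged from 0.0358 to 0.452. TAI/IVIg differed from TAI by -1.54 (SE 0.40), with a 95% interval of -2.45 to -0.63, and this was not a call after adjustment over all genes, at a limma adjusted p of 0.353. In the alternatives that adjusted p ranged from 0.150 to 0.977.

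Pyy was lower in both irradiated groups. Peptide YY, made with the glucagon-like peptides in L cells, slows gut transit and reduces appetite. The gene (chr11:102106676-102107832, minus strand) was at 33.3, 25.0 and 25.9 FPKM in control, 10.8, 14.8 and 20.7 in TAI, and 16.2, 8.95 and 9.83 in TAI/IVIg mice, and no irradiated mouse reached the control range. In TAI/IVIg mice the mean was 2.41-fold lower, with a log2 change of -1.23 (SE 0.27, limma adjusted p = 0.00624). That call was lost in 2 of 19 alternatives, the medians set equal (-0.67, limma adjusted p = 0.134) and median-ratio library sizes (-0.79, 0.0795), where the adjusted p ranged from 0.00460 to 0.134. In TAI mice the mean was 1.82-fold lower, with a log2 change of -0.86 (SE 0.27, limma adjusted p = 0.0360), which was lost in 10 of 19 alternatives. Among these were 3 other scalings: the medians set equal (-0.53), quantile normalization and median-ratio library sizes. Pairing the mice by number, as a replicate block, gave a limma adjusted p of 0.0542. Leaving out 1 mouse lost it for control mouse 1 (0.0955), 2 (0.0658) and 3 (0.0729) and for TAI mouse 1 (0.131) and 2 (0.0833), where the adjusted p over all alternatives ranged from 0.0196 to 0.241. The Pyy to Gcg proportion was 1.76 to 2.44 in control, 1.03 to 3.97 in TAI and 2.44 to 15.6 in TAI/IVIg mice, so the pair did not keep a fixed proportion although L cells make both.

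Nts had the highest mean level of the set in each group. Neurotensin, from N cells, is released by fat in the lumen. The gene (chr10:102481756-102490486, minus strand) was at 65.9, 58.1 and 53.9 FPKM in control, 67.2, 85.7 and 96.4 in TAI, and 89.2, 54.8 and 68.2 in TAI/IVIg mice. The TAI mice all lay above the control mice, the nearest values being 67.2 and 65.9, and the TAI/IVIg mice spanned the control range. For TAI the log2 difference was 0.47 (95% interval 0.01 to 0.93, limma adjusted p = 0.1004). For TAI/IVIg it was 0.23 (95% interval -0.23 to 0.69, limma adjusted p = 0.371). Scaling moved these values: with the library medians set equal they were 0.81 and 0.82, and the second then passed, at a limma adjusted p of 0.0477, in a range of 0.0418 to 0.846 over its alternatives. Quantile normalization called the first (0.70, limma adjusted p = 0.0331, in a range of 0.0331 to 0.255).

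Ghrl and Tph1 stayed under the filter. Ghrl encodes ghrelin, a hormone chiefly of the stomach that raises appetite (chr6:113716119-113719880, minus strand). It was read at 0.268 to 0.996 FPKM in control, 0.703 to 1.22 in TAI and 0.608 to 0.982 in TAI/IVIg mice, on 5 to 24 reads a mouse, and the groups overlapped. Tph1 (chr7:46644641-46672537, minus strand) was at 0.150 to 0.422, 0.265 to 0.448 and 0.0811 to 0.429 FPKM in the same order, on 9 to 46 reads. In the fit without a filter the log2 difference of Ghrl was 0.39 (95% interval -0.08 to 0.86) for TAI and 0.17 (-0.30 to 0.64) for TAI/IVIg, and that of Tph1 was 0.03 (-0.25 to 0.32) and -0.05 (-0.33 to 0.24), all against control. At these levels the added 1 FPKM compresses a fold change, so the intervals of Tph1 leave room for sizeable changes in either direction. Mast cells also use Tph1. Their 12 listed genes summed to 3.49 to 5.73 FPKM in control, 3.99 to 5.21 in TAI and 1.12 to 2.44 in TAI/IVIg mice, and 9 of them stayed under 1 FPKM in every mouse, Cpa3, Mcpt4, Tpsb2 and Ms4a2 among them. Mcpt1 was at 0.446 to 1.88 FPKM in control mice, at 0.115 FPKM or less in TAI mice and at 0 in the TAI/IVIg mice. Kit, Cma1 and Gata2, among others of the same list, went the other way in TAI mice. Kit was at 1.51 to 1.78 FPKM in control, 2.30 to 2.87 in TAI and 0.468 to 2.02 in TAI/IVIg mice. It carried much of the sum in some mice, as in TAI/IVIg mouse 1 with 2.02 of 2.44 FPKM. Cma1 was at 0.0530 to 0.208 FPKM in control, 0.251 to 0.732 in TAI and 0 to 0.164 in TAI/IVIg mice. Kit was the 1 gene of the list that was tested, and it was not called. The part of mast cells in the Tph1 levels was not tested.

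**Figure D2:**
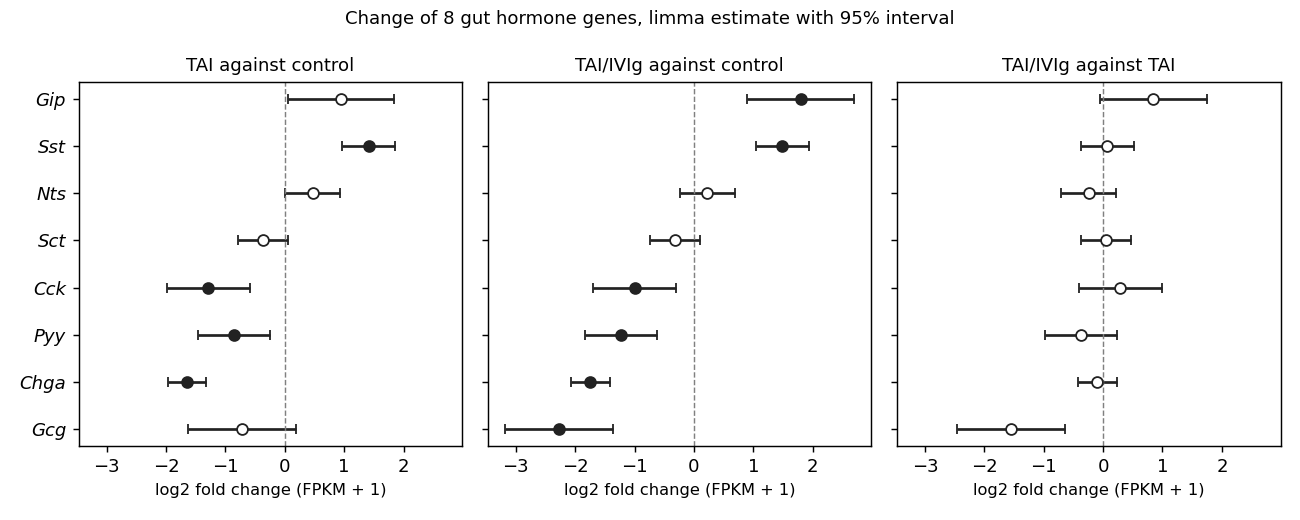
log2 fold change of the 8 tested genes on the log2(FPKM + 1) scale with 95% intervals, for the 3 comparisons. Filled points passed an adjusted p under 0.05 in limma. Chga and Sst sit at -1.65 and 1.42 in TAI and at -1.74 and 1.49 in TAI/IVIg against control, and no point is filled in TAI/IVIg against TAI.

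The order of the levels changed with these shifts. In control mice the means ran from Nts (59.3 FPKM) through Chga (35.0), Sct (32.5), Pyy (28.1), Gip (14.1), Gcg (12.9), Sst (8.60) and Cck (4.58) to Ghrl (0.564) and Tph1 (0.302). Chga, Sct and Pyy overlapped with their neighbours there, as did Gip with Gcg and Ghrl with Tph1. In TAI mice Gip (31.0), Sct (25.2), Sst (24.6), Pyy (15.4), Chga (10.6) and Gcg (8.24) followed Nts (83.1), each overlapping with the next of these 6. In TAI/IVIg mice Gip (53.6) followed Nts (70.7), and the 2 overlapped. Sct (25.9) and Sst (25.5) came next and overlapped, then Pyy (11.7) with Chga (9.77), and last the 4 genes from Gcg (2.06) and Cck (1.89) down.

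The summed level of the 8 peptide hormones overlapped between groups, at 141 to 178 FPKM in control, 152 to 221 in TAI and 182 to 198 in TAI/IVIg mice, while its makeup moved. Sst took 4.56% to 6.30% of the sum in control mice, 12.5% to 13.4% in TAI mice and 12.7% to 13.7% in TAI/IVIg mice. Gip took 7.49% to 10.2%, 8.10% to 22.7% and 16.5% to 34.7%, so its share in TAI mouse 3 was within the control range. Pyy went from 15.3% to 18.7% in control to 6.69% to 10.5% and 4.93% to 8.25%. The share of Gcg was 7.56% to 8.73% in control, 2.64% to 6.51% in TAI and 0.530% to 2.02% in TAI/IVIg mice, 3 ranges that did not overlap. Nts kept the largest share in 8 of 9 mice, at 30.2% to 48.9% over all mice, and in TAI/IVIg mouse 2 Gip was above it with 34.7% against 30.2%.

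Within the groups 7 of the 8 tested members could be laid out in 2 sets, seen in the values themselves. With each group's mean taken out, the log2 levels of Gip, Cck and Gcg rose and fell together across the 9 mice, with Pearson's r of 0.94 for Cck with Gip, 0.79 for Gcg with Gip and 0.78 for Gcg with Cck. Nts, Pyy, Sct and Chga formed the other set, with r from 0.66 (Nts with Chga) to 0.94 (Nts with Pyy). Across the sets r ran from -0.65 (Pyy with Gip) to 0.21 (Gcg with Chga). Sst belonged to neither set, with r from 0.29 (Gip) to 0.55 (Chga) with the other members. These values come from 9 libraries in which the genes share their depth and their stretch of gut, and they are given as a description. Over the same 9 mice the genes whose log2 level was most like the mean of the standardized members were Gm49437, Gpx2-ps1, 0610009L18Rik, ENSMUSG00000119653 (no symbol given) and 4930442L01Rik, with r from 0.83 to 0.92. That mean blends members that rose with members that fell.

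**Figure D3:**
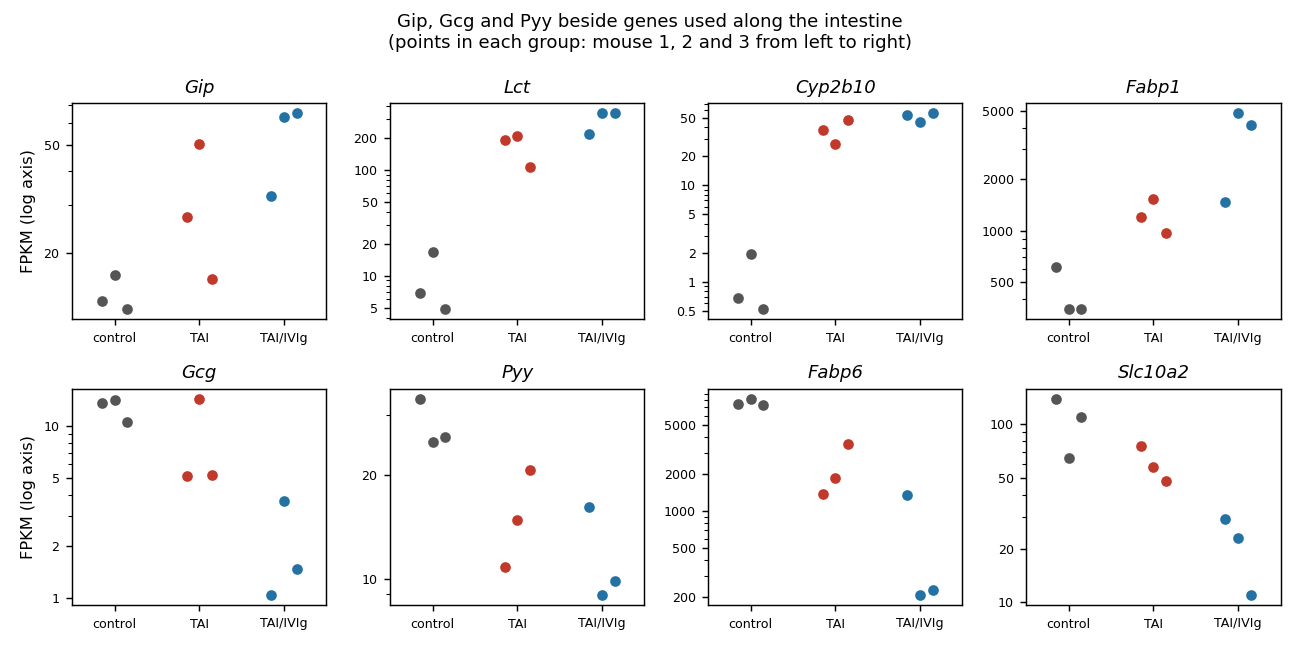
FPKM on log axes of Gip, Lct, Cyp2b10 and Fabp1 (upper row, genes used more in the upper small intestine) and of Gcg, Pyy, Fabp6 and Slc10a2 (lower row, used more towards the ileum). Points are mice 1, 2 and 3 from left to right in each group. TAI/IVIg mice 2 and 3 hold the lowest Fabp6 (208 and 229 FPKM) and the highest Gip (63.1 and 65.3 FPKM). Genes of the regional lists that moved the other way (Gcnt1, Mep1a, Cubn and Amn) are not shown.

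Other genes linked to these cells were taken from fixed lists, whose counts stand beside the shares of all tested genes given above (8.81% up and 26.1% down in TAI mice, 9.06% and 37.4% in TAI/IVIg mice). The lists are not limited to these cells, and Guca2a, Guca2b, Maoa and Dpp4 each stood above Chga in every mouse. Which cells gave the RNA was not tested. Of 16 further gut peptides 14 were found and 9 tested. In TAI mice Guca2b and Iapp rose and Nucb2 fell, and in TAI/IVIg mice Guca2a fell as well. Iapp, the gene of amylin, was at 0.232 to 0.532 FPKM in control, 0.732 to 1.26 in TAI and 0.735 to 1.54 in TAI/IVIg mice. It passed the filter through irradiated mice alone, where it was high, so its calls are a description, and they were lost in 6 and 5 of 18 alternatives. Nucb2, the gene of the nesfatin precursor, was at 7.65 to 10.2 FPKM in control, 3.15 to 5.19 in TAI and 1.05 to 2.46 in TAI/IVIg mice, with log2 changes of -1.01 and -1.81 that held in all 18 alternatives that tested it. The 2 guanylin genes, whose products act on a shared receptor on the epithelial surface, parted: Guca2b, uroguanylin, was at 564 to 777 FPKM in control and 1100 to 1490 in TAI/IVIg mice (log2 change 1.04, limma adjusted p = 0.00406), and Guca2a, guanylin, at 785 to 1100 and 513 to 673 (-0.68, limma adjusted p = 0.0148). The Guca2b call in TAI/IVIg mice held in all 19 alternatives, and that in TAI mice (0.65, limma adjusted p = 0.0381) was lost in 7, with adjusted p up to 0.118. The Guca2a call was lost with the medians set equal (-0.08, limma adjusted p = 0.807) and without control mouse 2 (0.0560) or TAI/IVIg mouse 3 (0.0547), in a range up to 0.807. In TAI mice the list's count of 3 went to 1 without control mouse 2 or without TAI mouse 1.

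Of the 25 transcription factors that make or mark these cells only 4 were tested, and 18 stayed under 1 FPKM in every mouse, Neurog3, the master factor of the lineage, among them. Neurod1 was at 0.910 to 1.22 FPKM in control, 0.941 to 1.51 in TAI and 0.852 to 1.04 in TAI/IVIg mice, and did not pass. Atoh1, which sets the secretory lineages apart from enterocytes, fell, at 6.02 to 8.96 FPKM in control, 3.66 to 4.68 in TAI and 2.39 to 3.83 in TAI/IVIg mice. Its log2 change was -1.16 (limma adjusted p = 0.00208) in TAI/IVIg mice, held in all 18 alternatives that tested it, and -0.69 (limma adjusted p = 0.0234) in TAI mice. The latter was lost in 7 of 18 alternatives, among them the fits without control mouse 1 (0.0525), control mouse 2 (0.0834) or TAI mouse 1 (0.0946), in a range up to 0.149. Foxa1 fell in TAI/IVIg mice by 0.70 on the log2 scale (limma adjusted p = 0.0479), lost in 12 of 18 alternatives with adjusted p up to 0.630.

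**Figure D4:**
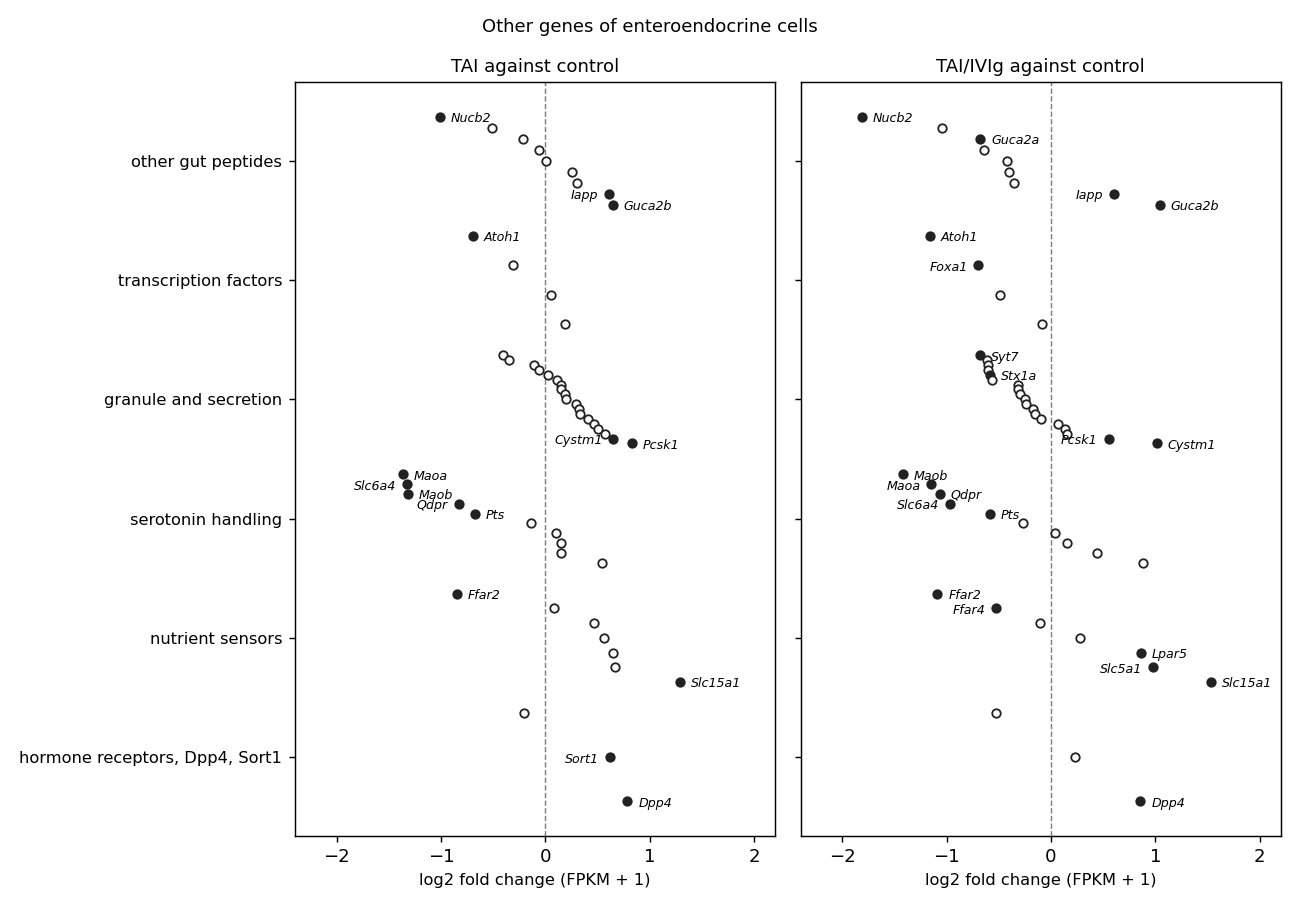
log2 fold change on the log2(FPKM + 1) scale of the tested genes in 6 lists, for TAI and TAI/IVIg against control. Each point is a gene, filled and named where it passed an adjusted p under 0.05 in limma. The 5 filled serotonin genes lie between -1.42 and -0.58, and Pcsk1 lies at 0.83 and 0.55.

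Genes of the granules and of secretion moved little as a list. Of 32 genes 19 were tested, with 2 up and 0 down in TAI mice (median log2 fold change 0.20, beside -0.23 for all genes) and 2 up and 2 down in TAI/IVIg mice (-0.24, beside -0.39). Pcsk1, the protease that cuts many prohormones, was at 0.959 to 1.29 FPKM in control, 2.51 to 3.11 in TAI and 1.83 to 2.34 in TAI/IVIg mice. Its log2 changes of 0.83 (limma adjusted p = 0.00299) and 0.55 (limma adjusted p = 0.0107) held in every alternative that tested it. Cystm1 rose by 0.65 and 1.02. The first of these calls was lost without control mouse 2 (0.0754), control mouse 3 (0.0892), TAI mouse 1 (0.0637) or TAI mouse 3 (0.0816), with all alternatives at 0.0892 or lower. Stx1a and Syt7, of the vesicle fusion machinery, fell in TAI/IVIg mice by 0.58 and 0.68 on the log2 scale, and the calls were lost in 12 and 7 of 18 alternatives, both with the medians set equal (0.204 and 0.240) and without control mouse 2 (0.103 and 0.0742) or TAI/IVIg mouse 3 (0.131 and 0.0659). Their adjusted p reached 0.328 for Stx1a and 0.314 for Syt7 over the alternatives. In TAI/IVIg mice 1, 2 and 3 Syt7 was at 1.40, 1.04 and 0.486 FPKM and Stx1a at 0.813, 1.04 and 0.425. The neuron gene sum was 43.5, 26.4 and 13.8 FPKM in these mice. The part of neurons in the granule and secretion genes was not tested. The other large granule gene, Chgb, was at 10.7 to 12.0 FPKM in control, 5.76 to 14.3 in TAI and 4.34 to 10.8 in TAI/IVIg mice, with log2 differences of -0.35 and -0.61 that did not pass (limma adjusted p = 0.444 and 0.164). The Chga fall was thus not called in Chgb, and the difference between the 2 genes was not tested.

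Of 14 genes that make, move or break down serotonin 10 were tested, and 5 fell and 0 rose in each irradiated group against control (at an unadjusted p under 0.05, 5 in TAI mice and 6 in TAI/IVIg mice). Of all tested genes 26.1% fell in TAI mice and 37.4% in TAI/IVIg mice, so with 10 genes the count is not set apart from this background. The median log2 fold change of the list was -0.41 and -0.42, beside -0.23 and -0.39 over all genes. Slc6a4, the serotonin transporter with which enterocytes clear it, was at 20.7 to 27.0 FPKM in control, 6.62 to 11.5 in TAI and 7.31 to 15.8 in TAI/IVIg mice. Its log2 change of -1.33 in TAI mice (limma adjusted p = 0.00908) held in all 19 alternatives. That of -0.97 in TAI/IVIg mice (limma adjusted p = 0.0230) was lost in 6, in a range up to 0.328, among them the fits without control mouse 1 (0.0608) or 2 (0.0636). Maoa and Maob, the monoamine oxidases, fell by 1.37 and 1.32 in TAI mice, and Qdpr, which renews the cofactor of the hydroxylases, fell by 0.83. Pts, of the same cofactor pathway and named after its values were seen, fell by 0.67. The Maoa call held in all 19 alternatives. Those of Maob, Qdpr and Pts were lost in 4, 8 and 7 of 19, with limma adjusted p up to 0.0582, 0.118 and 0.105. The count in TAI mice was 3 without control mouse 2 or 3, 2 without TAI mouse 1 or 2, and 2 with the library medians set equal. In TAI/IVIg mice scaling turned the list: with the medians set equal 0 genes of it fell and 2 rose, so no direction is given for it there.

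Nutrient sensors were mixed. Of 20 genes 7 were tested, with 1 up and 1 down in TAI mice and 3 up and 2 down in TAI/IVIg mice, where all tested genes gave 8.81% up and 26.1% down, and 9.06% up and 37.4% down. Slc15a1, the peptide transporter, was at 61.6 to 103 FPKM in control, 152 to 261 in TAI and 227 to 247 in TAI/IVIg mice, and its log2 changes of 1.29 and 1.54 held in all 19 alternatives. Slc5a1, the sodium and glucose cotransporter, rose by 0.97 in TAI/IVIg mice (limma adjusted p = 0.0116), also held throughout. Both are mostly enterocyte genes. Ffar2, a receptor for short-chain fatty acids, was at 2.02 to 2.07 FPKM in control, 0.335 to 0.990 in TAI and 0.319 to 0.675 in TAI/IVIg mice, with log2 differences of -0.84 and -1.09. It passed the filter through the control mice alone, where it was high, so its 2 calls are given as a description. Lpar5 rose by 0.87 and Ffar4 fell by 0.53 in TAI/IVIg mice. The Lpar5 call was lost without control mouse 1 (0.0559) or 3 (0.0778) or TAI/IVIg mouse 2 (0.0664) or 3 (0.0651), with adjusted p of 0.0778 or lower in all. The Ffar4 call was lost in 11 of 18 alternatives, with adjusted p up to 0.862.

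Of the 21 genes for receptors of these hormones, and for the proteins Dpp4 and Sort1 that cut or bind them, 18 stayed under 1 FPKM in every mouse, Glp1r, Gipr and Cckar among them. Glp2r, the receptor of glucagon-like peptide 2, was at 3.02 to 4.94 FPKM in control, 2.42 to 4.35 in TAI and 1.81 to 3.90 in TAI/IVIg mice, and did not pass. Dpp4, the protease that inactivates both incretins, rose. It was at 136 to 206 FPKM in control, 259 to 303 in TAI and 287 to 314 in TAI/IVIg mice, and its log2 changes of 0.79 (limma adjusted p = 0.00844) and 0.86 (limma adjusted p = 0.00389) held in all 19 alternatives. Sort1, sortilin, a binding protein of neurotensin, rose by 0.62 in TAI mice (limma adjusted p = 0.00835). In TAI/IVIg mice its log2 difference was 0.23, and 0.77 with the library medians set equal (limma adjusted p = 0.00727), in a range of adjusted p up to 0.387. Between TAI/IVIg and TAI limma called 0 genes in each of the 6 lists. At an unadjusted p under 0.05 limma gave 15 genes of these lists, 8 of them among the 19 granule genes tested. Over all genes this was 1680 of 13056, and whether the lists differ from that share was not tested. The log2 difference was negative there in 18 of the 19 granule genes and in all 10 tested neuron genes, beside a median of -0.13 over all genes. The part of neurons in these granule genes was not tested.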

How the data were processed

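RNA from the jejunum of 9 mice, 3 per group, was sequenced by the authors as mRNA libraries, all labelled as one batch. The deposited values are FPKM per gene, computed by the authors. The submitters' notes list FastQC, Trimmomatic, STAR, featureCounts and DESeq2 with GRCm38 (mm10), without versions. Whether counting used strand is not given in the sources used here. Whole reads (within 0.01) were recovered for all 31685 genes, for 30616 from GENCODE M21 exon lengths and for 1069 as the smallest whole multiples that their FPKM values allow, 16284386 to 18244535 per library, and p-values measure the spread between these mice.

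Tests used limma 3.58.1 in R 4.3.3 on log2(FPKM + 1), a term for each group, trended variances, and genes with at least 1 FPKM in 3 mice. The code was tested on simulated data. The mouse numbers are a label only, and a replicate block was an alternative fit. Deviations from the group means of mice with the same number in TAI and control gave r of 0.271, 0.241 and 0.308 across genes. In the other pairs of groups r ran from -0.296 to 0.201. Mice with different numbers were not compared, so these values cannot show whether the numbers pair the mice. The members and gene lists were chosen with earlier results of these data known. All members are named, and of each other list up to 4 called genes in each direction with the largest change. Alternatives were another pseudocount, filters, scalings, variance models, limma-voom on the recovered reads and leaving out each mouse.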

Additional observations from a re-analysis of the deposited data

How the results depend on the processing

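The counts of changed hormone genes stayed within 1.5 times the main ones in every alternative run: 3 to 5 against 4 for TAI, and 5 or 6 against 6 for TAI/IVIg, both against control, and 0 for TAI/IVIg against TAI. Of the calls, 3 of 4 and 4 of 6 held in all alternatives. The replicate block gave 3 and 6, and Pyy in TAI mice was the only member call it changed. Across all genes, leaving out TAI mouse 1 gave 707 up and 1643 down for TAI against control, where all mice gave 1150 and 3411. Setting the library medians equal gave 1817 up and 1685 down there, and 2708 and 1992 in place of 1183 and 4880 for TAI/IVIg against control. For TAI/IVIg against TAI, 4 genes fell without a filter and 3 with the replicate block.

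Signs that turned were all of differences that did not pass. Sct in TAI/IVIg against control turned from -0.32 to 0.26 with medians set equal and 0.18 with median-ratio library sizes in voom. In TAI/IVIg against TAI, Nts turned from -0.24 to 0.00899 and 0.0308 and Chga from -0.10 to 0.14 and 0.16 under the same settings, and Chga to 0.0279 with quantile normalization. There, with 1 mouse left out, Sst ranged from -0.0985 (without TAI mouse 1) to 0.209 and Sct from -0.0738 (without that mouse; -0.0553 without TAI/IVIg mouse 1) to 0.216. The cause was not tested. Ghrl and Tph1 rest on 5 to 46 reads a mouse, at levels where the added 1 FPKM also compresses fold changes.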
